A study of Mus musculus with 2 samples.

Results

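The genes of antigen presentation by the major histocompatibility complex (MHC) were followed in single leukemic progenitors with and without miR-142. The 10 members were chosen by name. The 5 class I genes were H2-K1, H2-D1, B2m, Tap1 and Nlrc5, and the 5 class II genes were H2-Aa, H2-Ab1, H2-Eb1, Cd74 and Ciita. All 10 were among the 32285 genes of the files, and 6 of them reached a mean of 10 CPM over both libraries, as did 7483 genes in all.

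Both groups were bone marrow cells sorted as Lin-Sca-1+c-Kit+ (LSK, the fraction that holds stem cells and early progenitors) from mice of the B6 background aged 8 to 10 weeks. All mice carried BCR-ABL, which the SCL promoter drives in blood progenitors through a tetracycline switch (SCLtTA/BCR-ABL), and it had been switched on for 2 weeks per the study methods. The miR-142 WT CML group had intact miR-142 and serves the study as a model of chronic phase chronic myeloid leukemia (CML). The miR-142 KO CML group was also miR-142-/- and serves as its model of blast crisis. The deletion is constitutive, so loss in the sorted cells and loss in their surroundings cannot be told apart. There was 1 library per group and the number of mice behind it was not stated. No test was therefore possible, and every interval below covers counting error only.

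The WT library gave 5363 cells, which held 138183896 UMIs, and the KO library 5458 cells, which held 158438757. A UMI, or unique molecular identifier, stands for 1 captured transcript, and a level in CPM is the number of UMIs per 1000000 UMIs of the cells. A cell was a barcode with at least 8000 UMIs and under 10% mitochondrial UMIs. The median depth was 19443 UMIs per cell in WT and 24181.5 in KO. The host transcript of the deleted miRNA, Mir142hg, had 1260 UMIs in WT and 20 in KO. The sorting antigen gene Kit (c-Kit) had 86.4 CPM in WT against 68.3 in KO, while Ly6a, which encodes Sca-1, was at 96.8 and 152.9 CPM. Only 4 barcode sequences occurred among the cells of both libraries. The WT library held 36 cells with the markers of antibody-secreting cells and the KO library none.

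MHC class I molecules present peptides from inside the cell to CD8 T cells. A heavy chain such as H2-K or H2-D pairs with beta-2-microglobulin, and the TAP transporter brings peptides into the endoplasmic reticulum for loading. Class II molecules are made of an alpha and a beta chain, assemble on the invariant chain CD74, and present endocytosed peptides to CD4 T cells. They are best known from B cells, dendritic cells and macrophages. CIITA is the master activator of class II genes and NLRC5 is its relative for class I genes. Both act through a shared promoter module whose factors include RFX, CREB and NF-Y.

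The deleted locus makes mature miRNAs from both arms of its hairpin, shown here because they are what differs by design between the groups. The seed, bases 2 to 8, is in capitals (RefSeq, GRCm38.p6, plus strand of chromosome 11, 87756867 to 87756887 for the 5p arm and 87756903 to 87756925 for the 3p arm).
mmu-miR-142a-5p: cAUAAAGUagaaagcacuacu
mmu-miR-142a-3p: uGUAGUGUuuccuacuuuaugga
All 10 members had an annotated 3′ untranslated region. The match to the 3p seed, ACACTAC, was found in 1 of them, Ciita, against 6.61% of the 7294 tested genes with such a region. The match to the 5p seed, ACTTTAT, was in 0 of the 10 members and in 16.03% of the tested genes. A match describes letters only and was not tested as a site.

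Promoter windows were in the RefSeq table for 6 of the 10 members. Those of the class I genes are printed because, over all cells, H2-D1 was higher in KO and the H2-Q genes were lower. Whether the letters bear on these levels was not tested. Bases from -190 to -1 before the start site are given 5′ to 3′ in gene orientation (GRCm38.p6). Capitals mark the letters GGGATTCCC, TGACG or CCAAT on either strand.
H2-K1, chr17:34000348-34000537, minus strand: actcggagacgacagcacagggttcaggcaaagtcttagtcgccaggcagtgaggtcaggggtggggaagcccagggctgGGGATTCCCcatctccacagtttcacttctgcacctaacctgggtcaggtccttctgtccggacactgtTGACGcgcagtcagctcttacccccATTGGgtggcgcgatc
H2-D1, chr17:35262904-35263093, plus strand: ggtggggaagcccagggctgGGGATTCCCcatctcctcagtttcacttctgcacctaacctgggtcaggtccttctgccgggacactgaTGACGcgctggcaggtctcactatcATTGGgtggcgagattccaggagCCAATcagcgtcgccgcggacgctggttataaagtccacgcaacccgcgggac
H2-Q7, chr17:35438965-35439154, plus strand: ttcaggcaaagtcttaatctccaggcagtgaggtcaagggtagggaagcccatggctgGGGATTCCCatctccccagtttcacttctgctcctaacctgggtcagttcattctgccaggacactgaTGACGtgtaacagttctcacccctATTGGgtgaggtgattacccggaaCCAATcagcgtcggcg
H2-Q6, chr17:35424660-35424849, plus strand: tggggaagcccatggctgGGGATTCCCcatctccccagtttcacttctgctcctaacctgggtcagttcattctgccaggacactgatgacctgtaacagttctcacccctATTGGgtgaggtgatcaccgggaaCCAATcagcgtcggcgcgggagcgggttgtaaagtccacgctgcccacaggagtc
H2-Q4, chr17:35379427-35379616, plus strand: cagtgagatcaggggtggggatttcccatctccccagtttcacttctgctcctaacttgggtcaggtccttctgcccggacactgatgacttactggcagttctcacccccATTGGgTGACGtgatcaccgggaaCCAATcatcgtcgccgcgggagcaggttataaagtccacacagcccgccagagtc
B2m, chr2:122147497-122147686, plus strand: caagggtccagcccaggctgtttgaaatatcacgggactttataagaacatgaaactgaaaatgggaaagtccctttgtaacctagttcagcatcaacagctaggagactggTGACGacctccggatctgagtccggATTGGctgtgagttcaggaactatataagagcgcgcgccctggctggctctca
Tap1, chr17:34187366-34187555, plus strand: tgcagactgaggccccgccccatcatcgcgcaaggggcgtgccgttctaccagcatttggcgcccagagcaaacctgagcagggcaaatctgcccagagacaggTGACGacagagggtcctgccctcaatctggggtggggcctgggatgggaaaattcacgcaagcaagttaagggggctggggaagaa
H2-Ab1, Cd74, Ciita and Nlrc5 had no entry. The exact letters GGGATTCCC, of NF-kB type, were present in 0.301% of all 32851 windows (250 bases before the start, both strands). They stood in H2-K1, H2-D1, H2-Q6 and H2-Q7 and not in H2-Q4, B2m or Tap1. Variants of these letters were not searched, so the windows of H2-Q4, B2m and Tap1 may still hold an NF-kB site. TGACG, the core of a CREB element, was in 17.8% of all windows and in each printed gene but H2-Q6. CCAAT, the NF-Y box, was in 33.8% of all windows and in each printed sequence except that of Tap1, which had it farther upstream. From the GGGATTCCC motif on, H2-K1 and H2-D1 had the same base at 89 of 100 positions.

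For class II, the last 110 bases before the start site are shown for the genes of the table, H2-Aa and H2-Eb1, to set their TGACG and CCAAT letters beside those of class I.
H2-Aa, chr17:34287824-34287933, minus strand: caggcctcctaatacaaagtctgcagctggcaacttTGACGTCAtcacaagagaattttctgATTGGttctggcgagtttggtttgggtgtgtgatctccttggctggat
H2-Eb1, chr17:34305757-34305866, plus strand: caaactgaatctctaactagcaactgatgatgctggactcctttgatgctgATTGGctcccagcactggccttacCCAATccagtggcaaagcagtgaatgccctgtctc
H2-Aa held TGACG on both strands and 1 CCAAT box, and H2-Eb1 held 2 CCAAT boxes and no TGACG.

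The classical class I chains were abundant in both libraries and close to each other in level. H2-K1 (ENSMUSG00000061232, chromosome 17, 33996017 to 34000347, GRCm38), a classical heavy chain, measured 1009 CPM in WT against 971 in KO. Its log2 ratio, KO over WT, was -0.06 (95% counting interval -0.07 to -0.04), or 0.023 with median-of-ratios size factors. H2-D1 (ENSMUSG00000073411, chromosome 17, 35262730 to 35267499), the other classical heavy chain, measured 858 CPM in WT against 964 in KO, a log2 ratio of 0.17 (0.16 to 0.18). B2m (ENSMUSG00000060802, chromosome 2, 122147686 to 122153083), the invariant light chain, measured 902 CPM in WT against 759 in KO, a log2 ratio of -0.25 (-0.26 to -0.24). The sum of the 3 was 2769 CPM in WT against 2694 in KO, a log2 ratio of -0.04 (-0.05 to -0.03). Direction turned for this sum with another scaling, to 0.038 with size factors, and the typical gene itself had a log2 ratio of -0.08.

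Class I transcripts were found in every cell. After each cell had been thinned to 8000 UMIs, the 3 chains together gave a median of 24 UMIs per WT cell and 23 per KO cell, with 5th and 95th percentiles of 12 and 42 in WT and 11 and 42 in KO. The 1% of cells with the highest counts held 3.34% of these UMIs in WT and 2.89% in KO. Across the 5102 WT cells and 4916 KO cells of the progenitor gates defined below, the log2 counts of H2-K1 and H2-D1 had a Pearson r of 0.40 in both libraries, a description of cells that share a library.

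Tap1 and Nlrc5 were lower in the KO library. Tap1 (ENSMUSG00000037321, chromosome 17, 34187553 to 34197225), which encodes a subunit of the peptide transporter, measured 71.0 CPM in WT against 49.2 in KO, a log2 ratio of -0.53 (-0.57 to -0.48). It was seen in 44.3% of WT cells and 34.9% of KO cells after thinning. The start of Tap1 overlaps Psmb9 on the other strand, and whether counting used strand is not given in the sources used here. Nlrc5 (ENSMUSG00000074151, chromosome 8, 94434356 to 94527272) was rare in both, at 7.66 CPM in WT against 4.999 in KO, a log2 ratio of -0.62 (-0.75 to -0.48). In progenitor gates, 42.7% (37.2 to 48.4) of the WT cells with an Nlrc5 UMI also had Tap1, against 45.4% (44.0 to 46.8) of those without. The same shares in KO were 35.6% (29.0 to 42.7) and 35.7% (34.3 to 37.1), so no difference was detectable at this depth.

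Class II was low, and its members were of different kinds. H2-Ab1 (ENSMUSG00000073421, chromosome 17, 34257689 to 34269419), the beta chain of I-A, was broadly detected at 38.5 CPM in WT against 27.6 in KO, a log2 ratio of -0.48 (-0.54 to -0.42). Its partner H2-Aa (ENSMUSG00000036594, chromosome 17, 34282744 to 34287823), the alpha chain, had 358 UMIs in WT and 216 in KO, or 2.59 and 1.36 CPM, a log2 ratio of -0.93 (-1.18 to -0.68). H2-Ab1 was thus over 10 CPM in both libraries while the chain it pairs with was not in either. H2-Eb1 (ENSMUSG00000060586, chromosome 17, 34305867 to 34316674), the I-E beta chain, had 198 UMIs in WT and 145 in KO, a log2 ratio of -0.65 (-0.97 to -0.33). Cd74 (ENSMUSG00000024610, chromosome 18, 60803848 to 60812652), the invariant chain, had 3148 UMIs in WT and 540 in KO, or 22.8 and 3.41 CPM. Its log2 ratio of -2.74 (-2.88 to -2.61) was lower than that of all but 0.120% of the tested genes. Ciita (ENSMUSG00000022504, chromosome 16, 10480059 to 10528418) had 105 UMIs in WT and 66 in KO, a log2 ratio of -0.87 (-1.33 to -0.41).

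**Figure D1:**
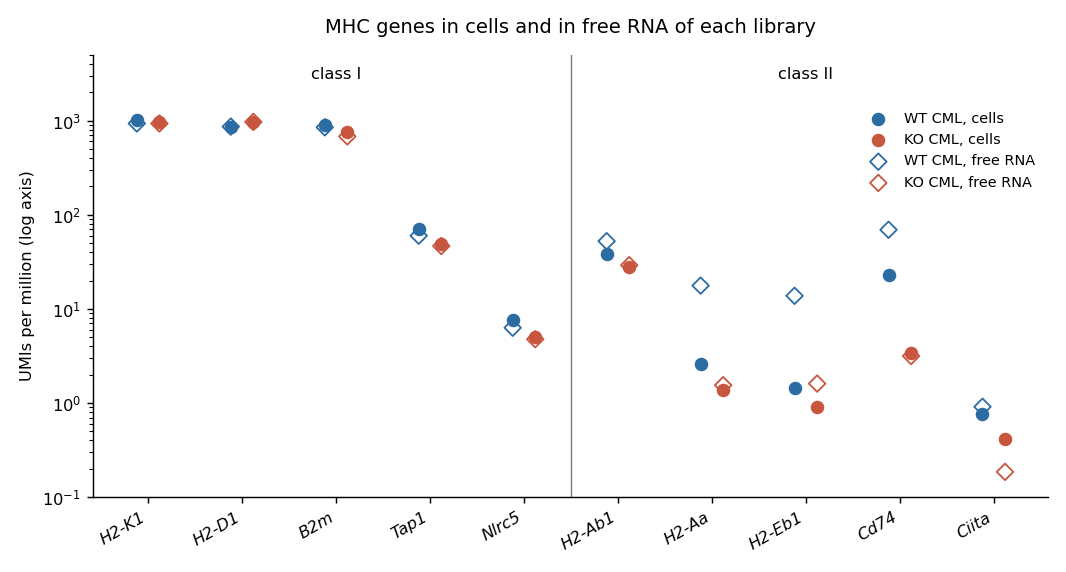
Level of each member in CPM (log axis) in the cells (filled circles) and in the free RNA (open diamonds, barcodes of at most 100 UMIs) of the WT library (blue) and the KO library (red). H2-K1, H2-D1 and B2m sit between 759 and 1009 in cells, and Cd74, H2-Aa and H2-Eb1 are far higher in the free RNA of the WT library than in its cells.

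Across the tested genes, 2.78% stood 1.5-fold or more above WT in the KO library and 4.85% stood 1.5-fold or more below. Of the 6 members that reached the mean of 10 CPM, 0 were 1.5-fold higher and 1 was 1.5-fold lower. That gene was Cd74, which reached the floor only through its WT level. The other 4 members, H2-Aa, H2-Eb1, Ciita and Nlrc5, were under the floor and each was over 1.5-fold lower. Such calls are common without a floor, where 5997 of the 18348 genes with at least 1 UMI in both libraries were past 1.5-fold. That set reaches down to genes with 1 UMI and pools both directions, so it is not a matched background for these 4 members. Over one mix of the cell groups described below, H2-Eb1 and Ciita turned to higher, at 0.38 and 0.085. H2-Aa and Nlrc5 were then at -0.16 and -0.37. The values of H2-Aa and H2-Eb1 keep 1 KO cell, described below, with 40 and 17 UMIs of them. Over all 10 members, 9 were lower in KO and H2-D1 was higher, with H2-K1 turning to higher under size factors. The members' median log2 ratio was -0.57, against -0.08 over all tested genes. With 50.5% of the calls higher under size factors against 36.4% under CPM, the balance of calls over all genes depended on the scaling.

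Cell groups were then set by marker gates, since the libraries differed in make-up. A cell entered the first gate whose marker UMIs it reached after thinning to 8000 UMIs, and 7 gates held 50 or more cells in both libraries. Cells with at least 50 UMIs of the primary granule genes (Mpo, Elane, Ctsg, Prtn3; the granule-high gate) were 778 in WT (14.5%) and 2533 in KO (46.4%). The lymphoid-primed gate (Flt3, Dntt, Satb1, Lsp1) held 811 and 463 cells, and the HSC gate (Hlf, Mecom, Mllt3, Procr, Fgd5, Pdzk1ip1, Meis1, Ctnnal1) 837 and 192. The megakaryocyte gate held 234 and 236 cells and the mast and basophil gate 195 and 297. The innate lymphoid gate held 22 and 244 cells and was not compared. What remained was split into cycling (1378 and 663) and non-cycling cells (1013 and 803). Gates are ranges rather than types: 268 WT and 563 KO cells had 40 to 60 granule UMIs, and 1433 and 732 cells had 3 to 5 HSC marker UMIs. The HSC markers themselves were lower in KO over all cells, with summed levels of 228 and 95.8 CPM.

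Class I levels followed the cell group in both libraries. In WT, the sum of H2-K1, H2-D1 and B2m was 2091 CPM in the granule-high gate and 2510 CPM in the mast and basophil gate. It lay between 3038 and 3173 CPM in the cycling, non-cycling, lymphoid-primed and megakaryocyte gates and was 3458 CPM in the HSC gate. In KO, granule-high cells were again lowest at 2416 CPM and the HSC gate highest at 3765 CPM. Neighbours in the middle of this order, such as the WT cycling (3038 CPM) and non-cycling gates (3052 CPM), lay close together, and with 1 library per group the order between such neighbours was not resolved.

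**Figure D2:**
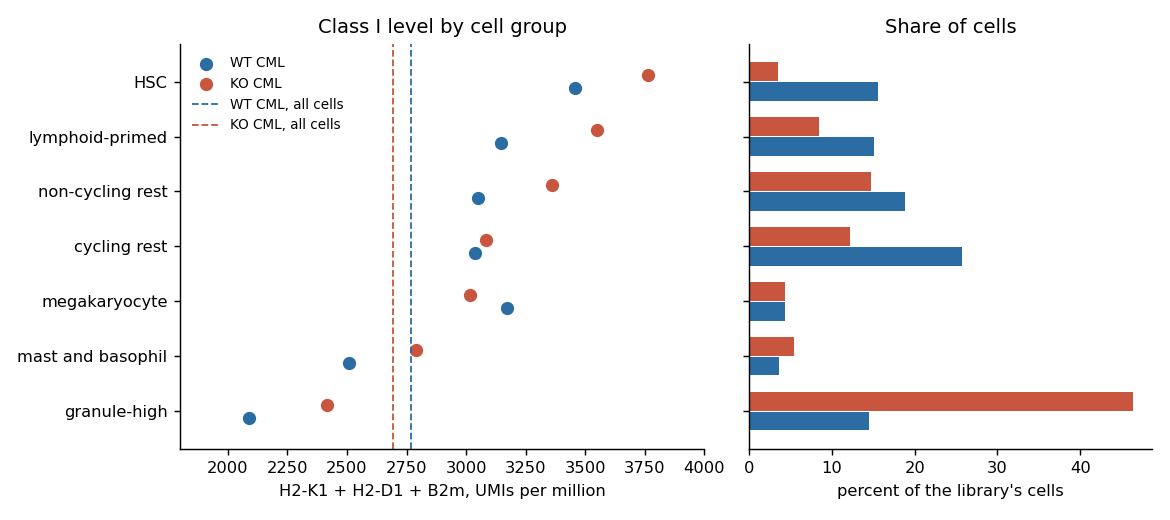
Left, the summed level of H2-K1, H2-D1 and B2m (CPM, axis not from 0) in the 7 gates with 50 or more cells in both libraries, WT in blue and KO in red, with dashed lines for all cells of a library. Right, each gate's percent of the library's cells. KO lies above WT in 6 of the 7 gates, and the granule-high gate, lowest in class I, holds 46.4% of KO cells against 14.5% of WT cells.

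Within 6 of 7 cell groups the class I sum was higher in KO, opposite to the whole libraries. Its log2 ratio was above 0 in 6 of 7 gates, each with an interval above 0, from 0.02 (0.01 to 0.04) in cycling cells to 0.21 (0.20 to 0.22) in granule-high cells. The exception was the megakaryocyte gate at -0.07 (-0.11 to -0.04). With both libraries given one mix of the cell groups found in both, which leaves out the antibody-secreting cells, the sum had a log2 ratio of 0.11 in place of -0.04.

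Of the 3 chains, H2-D1 was higher in every compared gate. Its level was 708 CPM in WT against 868 in KO in granule-high cells, 985 and 1280 CPM in the HSC gate, and 946 and 1186 CPM in lymphoid-primed cells. Its log2 ratio ranged from 0.13 to 0.38 over the 7 gates, each interval above 0. H2-K1 was at 701 and 872 CPM in granule-high cells, a log2 ratio of 0.31 (0.30 to 0.33), and at 1298 and 1397 CPM in the HSC gate, 0.11 (0.05 to 0.16). Its interval lay above 0 in 5 gates and below 0 in 1, the megakaryocyte gate (1239 CPM in WT against 1100 in KO). The interval of B2m was above 0 in 1 gate (mast and basophil, 711 and 849 CPM) and below 0 in 4. In granule-high cells B2m measured 682 CPM in WT against 676 in KO. Depth differed within the granule-high gate, with medians of 55952 UMIs in WT against 39665 in KO, and its part in these values was not tested.

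Ly6a, itself a sorting marker, was higher in KO in 7 of 7 gates, with log2 ratios from 0.37 to 1.85. The sort selects on its product, and the part of the sort in the class I values was not tested.

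Tap1 stayed lower in KO within cell groups. Its level was 58.7 CPM in WT against 44.9 in KO in granule-high cells, 80.6 and 60.0 CPM in lymphoid-primed cells, and 85.8 and 65.7 CPM in cycling cells. All 7 gates had a log2 ratio below 0, from -0.42 to -0.10, and 5 had an interval below 0. The HSC gate, at 65.0 and 60.5 CPM, and the mast and basophil gate, at 34.3 and 31.2 CPM, had intervals that crossed 0. Nlrc5 had an interval below 0 in 3 gates, with 7.16 CPM in WT against 4.26 in KO in granule-high cells, 8.65 and 5.99 CPM in lymphoid-primed cells, and 8.38 and 6.06 CPM in non-cycling cells. It was 10.8 and 10.2 CPM in the HSC gate, where only 112 and 22 UMIs were counted.

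**Figure D3:**
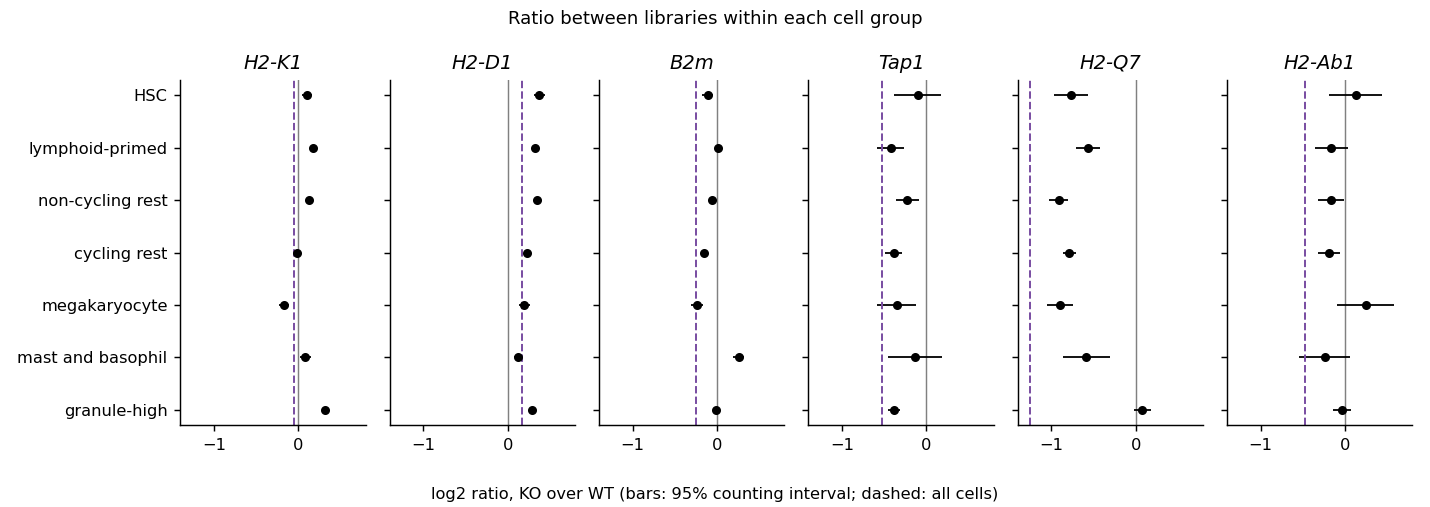
Log2 ratio, KO over WT, within each gate for H2-K1, H2-D1, B2m, Tap1, H2-Q7 and H2-Ab1, with 95% counting intervals (bars) and the value over all cells (dashed). H2-D1 is above 0 in all 7 gates and Tap1 below 0 in all 7, while H2-Q7 is below 0 in each gate but granule-high.

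Among the class I chains at 10 CPM or more in either library, the non-classical heavy chains of the Q region had the lowest log2 ratios. H2-Q7, a Qa-2 antigen, measured 113 CPM in WT against 47.6 in KO, a log2 ratio of -1.25 (-1.29 to -1.21). H2-Q6 was at 26.7 and 14.2 CPM (-0.91) and H2-Q4 at 44.1 and 24.4 CPM (-0.85). H2-M3, which presents formylated peptides, was at 26.9 and 16.9 CPM (-0.67). Reads from near-identical Q genes can be counted for one another, so single Q genes are uncertain.

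Within cell groups, only H2-Q6 among H2-Q7, H2-Q6 and H2-Q4 had intervals clear of 0 in both directions. In granule-high cells H2-Q7 measured 26.7 CPM in WT against 28.2 in KO. Elsewhere it was 133.7 and 71.0 CPM in non-cycling cells, 187 and 110.4 CPM in the HSC gate, and 265 and 142 CPM in the megakaryocyte gate. The H2-Q7 log2 ratio was below 0 in 6 of 7 gates, each with an interval below 0, and was -0.73 over one mix of cell groups. H2-Q6 was higher in KO in granule-high cells, at 5.94 and 8.29 CPM with a log2 ratio of 0.48 (0.28 to 0.69), and lower with an interval below 0 in 4 gates. H2-Q4 had an interval below 0 in 5 gates and above 0 in none. H2-Q7 and H2-K1 differed in direction in lymphoid-primed cells, where H2-Q7 was at 113 and 76.4 CPM and H2-K1 at 1167 and 1320 CPM. Both promoter windows printed above hold GGGATTCCC, TGACG and CCAAT, and the part of these letters in the levels was not tested.

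Most of the WT Cd74 counts came from a few cells. The 36 antibody-secreting cells (Jchain, Mzb1, Derl3) held 2058 of the 3148 WT UMIs of Cd74, or 65.4%, at 1848 CPM. Those cells had little Kit (13.5 CPM) and high Ly6a (579 CPM), and 0 such cells were found among the 5458 of the KO library. They held only 2 UMIs of H2-Aa and 9 of H2-Eb1. Without this gate the Cd74 log2 ratio was -1.22 (-1.37 to -1.07), while those of H2-Ab1 and H2-Aa were -0.47 and -0.93. Over one mix of cell groups, which also leaves out that gate, Cd74 was at -0.53, H2-Ab1 at -0.10 and H2-Aa at -0.16. These values keep the 1 KO cell with 40 H2-Aa UMIs described below.

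Other cells hold class II as well. Over all cells, the B cell markers summed to 40.2 CPM in WT against 34.8 in KO, with Pax5 at 0 in WT. Cd79b made up 35.95 and 34.6 CPM of these sums, and the other 6 markers together were at 4.23 and 0.158 CPM. The dendritic markers summed to 30.6 and 21.04 CPM, with Klk1 and Cd209a at 0 in both and Siglech at 0 in KO, and Clec10a made up 19.8 and 17.2 CPM of them. The macrophage markers summed to 3.94 and 4.11 CPM, with none of 7 at 0. The gates held 0 B cells in either library, 4 and 0 dendritic cells, and 4 and 1 macrophages. The dendritic and macrophage gates held 12 and 6 of the 9029 class II UMIs of WT and 0 of those of KO. The class II log2 ratio was -0.59 both without the antibody-secreting gate alone and without all gates of other cell types.

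Free RNA of the WT library was rich in class II transcripts. In barcodes of at most 100 UMIs, Cd74 stood at 69.2 CPM in WT against 3.15 in KO, H2-Aa at 17.7 and 1.55 CPM, and H2-Eb1 at 13.8 and 1.61 CPM. The macrophage markers summed there to 59.5 CPM in WT against 5.69 in KO. H2-K1 in free RNA, at 932 and 933 CPM, was close to its level in cells. The immunoglobulin gene Igkc set an upper limit on how much free RNA the progenitors took up. It was at 46.3 CPM in WT progenitors against 5682 CPM in WT free RNA, and at 1.53 against 85.2 CPM in KO. By this gene, free RNA was at most 0.814% of the UMIs in WT and 1.79% in KO. By C1qa, C1qb and C1qc together the limit in WT was 1.33%. Whether the free Igkc of KO, a library with 0 antibody-secreting cells, came from its own cells was not tested. At the Igkc limit, free RNA accounts for 0.564 of the 6.60 CPM of Cd74 in WT progenitors, or 8.54%. For their H2-Ab1 it accounts for 1.11%.

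Cd74, H2-Aa and H2-Eb1 were found in few cells and mostly as single UMIs. H2-Aa had 1 UMI in 199 WT cells, 2 in 39 and more in 18, and in KO 1 UMI in 119 cells, 2 in 12 and more in 11. One KO cell in the cycling gate held 40 UMIs of H2-Aa, 17 of H2-Eb1 and 73 of Cd74, with no Kit or Cd34. Without it, H2-Aa in cycling cells went from 4.79 to 2.34 CPM in KO, beside 2.67 CPM in WT, and its log2 ratio from 0.85 (0.40 to 1.29) to -0.19 (-0.77 to 0.36). Without that cell the Cd74 log2 ratio in the cycling gate turned from 0.32 (-0.01 to 0.65) to -1.03 (-1.51 to -0.57).

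Among the compared progenitor gates of WT, Cd74 was highest in the HSC gate, at 19.6 CPM against 6.98 CPM in KO, a log2 ratio of -1.49 (-2.35 to -0.74). H2-Aa there was at 7.80 and 1.86 CPM, from 81 and 4 UMIs. Lymphoid-primed cells went the other way, with H2-Aa at 3.73 CPM in WT against 5.85 in KO, a log2 ratio of 0.65 (0.04 to 1.24) from 62 and 41 UMIs, and Cd74 at 12.4 and 15.3 CPM, a log2 ratio of 0.30 (-0.05 to 0.65). Granule-high cells had 1.18 CPM of Cd74 in WT and 0.485 CPM in KO, the lowest of the compared gates. H2-Eb1 stayed under 5 CPM in every compared gate, and its only interval clear of 0, 0.67 (0.06 to 1.27) in cycling cells, became -0.10 (-0.85 to 0.60) without the 1 KO cell. Ciita had at most 29 UMIs in any gate, and all its intervals included 0. Over one mix of cell groups, with that KO cell kept, the log2 ratio of H2-Eb1 turned to 0.38 and that of Ciita to 0.085.

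H2-Ab1 was found in each of the 7 compared gates. Among these it was lowest in granule-high cells, at 21.9 CPM in WT against 21.4 in KO, and between 34.4 and 51.1 CPM in the other compared gates of WT. In the other compared gates of KO it ranged from 33.0 to 49.4 CPM, and in the innate lymphoid gate it was at 27.1 CPM in WT against 24.9 in KO. The log2 ratio had an interval below 0 in 2 gates, cycling (-0.18) and non-cycling cells (-0.17), and above 0 in none. Over one mix of cell groups it was -0.10, against -0.48 over all cells. Megakaryocyte-gated cells, which were sorted as LSK like the rest, had 34.4 CPM in WT against 40.7 in KO.

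**Figure D4:**
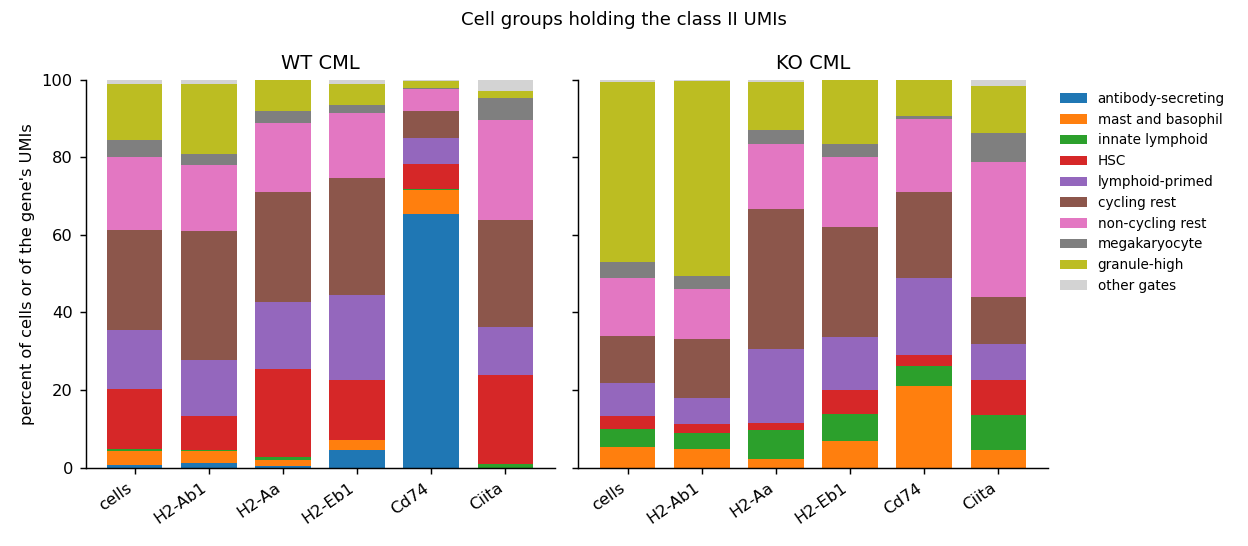
Percent of cells (first bar) and of the UMIs of each class II gene held by each gate in the WT library (left) and the KO library (right). Antibody-secreting cells, 0.671% of WT cells, hold 65.4% of the WT Cd74 UMIs and 1.26% of the WT H2-Ab1 UMIs. The WT HSC gate, 15.6% of cells, holds 8.79% of the H2-Ab1 UMIs, and the WT cycling gate, 25.7% of cells, holds 33.3%. Shares of UMIs also depend on the depth of the cells.

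The share of cells with any of H2-Aa, H2-Ab1, H2-Eb1 or Cd74 was 32.4% (31.1 to 33.6) in WT and 24.1% (22.96 to 25.3) in KO at 8000 UMIs per cell. KO was lower by 8.28 ± 1.70 percentage points (counting error). Unthinned, the shares were 59.8% and 51.7%. In the mast and basophil gate the share was 33.8% (27.2 to 41.0) in WT against 22.9% (18.2 to 28.1) in KO. In other gates the shares lay closer together, at 34.9% and 35.9% in the HSC gate, 36.5% and 34.6% in lymphoid-primed cells, and 16.7% and 15.9% in granule-high cells. Megakaryocyte-gated cells were at 28.6% (22.9 to 34.9) and 31.8% (25.9 to 38.1), at median depths of 16520 and 13509.5 UMIs. Whether these cells lack class II was not tested, and H2-Aa in that gate was at 2.52 CPM in WT and 2.19 in KO, from 11 and 8 UMIs. The share of cells with any of the class II genes, made up mainly of H2-Ab1, was not shown to set class II expressing cells apart. The summed class II level was 65.3 CPM in WT against 33.3 in KO, a log2 ratio of -0.97 (-1.02 to -0.92), which became -0.59 without the antibody-secreting gate and -0.15 over one mix of cell groups.

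Cd74 was found more often in cells with H2-Aa than in cells without it. Of WT progenitors with an H2-Aa UMI, 30.3% (22.2 to 39.3) had Cd74, against 4.25% (3.71 to 4.85) of those without. In KO these shares were 20.8% (12.2 to 32.0) and 2.02% (1.65 to 2.46). H2-Ab1 was found in 44.5% of WT cells with H2-Aa and in 27.0% of those without, and of the H2-Ab1-positive WT cells only 3.79% had H2-Aa. Ciita was too sparse for such a comparison, with 54 positive WT cells and 34 positive KO cells after thinning.

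The members were set among 75 genes of antigen presentation in the files, of which 53 reached 10 CPM in either library. Past 1.5-fold, 3 of these were higher in KO and 12 lower, with a median log2 ratio of -0.19. Of the 7772 genes that reached 10 CPM in either library, 3.15% were higher, 6.05% were lower and the median was -0.08. Over one mix of cell groups 2 were higher, 5 lower and the median was -0.07, while of the 7483 genes with a mean of 10 CPM 1.80% were higher, 1.60% were lower and the median was -0.06. H2-Ob, Cd74, Ctss and Cd274 reached 10 CPM in WT only and so could be called only in the lower direction.

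Among the 10 class I chains that reached the floor, 4 were 1.5-fold lower and 0 higher, beside 6.05% and 3.15% of all genes at that floor. These were H2-Q4, H2-Q6, H2-Q7 and H2-M3. Over one mix of cell groups only H2-Q7 of them stayed past 1.5-fold, at -0.73. H2-Q4, H2-Q6 and H2-M3 were then at -0.38, -0.49 and -0.47. Since reads of the Q genes can be counted for one another, their calls may not be separate. The 8 genes of peptide loading, the 5 of the immunoproteasome and the 3 catalytic subunits of the constitutive proteasome had none past 1.5-fold. Of the 6 class II chains and chaperones at the floor, H2-Ob, a subunit of the peptide exchange inhibitor H2-O, was lower beside Cd74, at 15.4 and 6.36 CPM (-1.28). H2-DMa, a subunit of the peptide exchange factor, measured 123 CPM in WT against 114 in KO over all cells. Within gates H2-DMa was higher in KO in 7 of 7, and 5 intervals were above 0.

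The endosomal proteases split. Ctss, cathepsin S, which trims the invariant chain, measured 25.2 CPM in WT against 8.84 in KO (-1.51), and in WT free RNA at 70.0 CPM. Ctsh, an aminopeptidase, was at 19.3 and 11.7 CPM (-0.73). Ctsl, cathepsin L, was higher in KO at 43.5 and 86.1 CPM (0.98), as was the endosomal tetraspanin gene Cd63 at 213 and 571 CPM (1.42). Both Ctsl and Cd63 were higher in KO in 7 of 7 gates, with intervals above 0 in each.

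Of the 9 listed regulators, 5 reached the floor and 0 of those were past 1.5-fold. On the interferon gamma axis, the receptor gene Ifngr1 was higher in KO at 110.3 and 191 CPM (0.79), and its interval was above 0 in 4 gates. The repressor Irf2 was at 71.2 and 43.4 CPM (-0.71), with log2 ratios below 0 in 7 of 7 gates. Irf8, a factor of monocyte, dendritic and B cell fate, was at 77.7 and 38.2 CPM (-1.02). It was 156 CPM in WT against 42.6 in KO in granule-high cells but 10.0 and 22.4 CPM in the HSC gate. Cd274, which encodes PD-L1, was at 10.7 and 6.51 CPM (-0.72) over all cells and was the only gene of its list to reach the floor. Over one mix of cell groups its log2 ratio was -0.17. Within gates Cd274 had an interval above 0 in 1 and below 0 in 2, and its highest log2 ratio was 0.50 in granule-high cells.

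**Figure D5:**
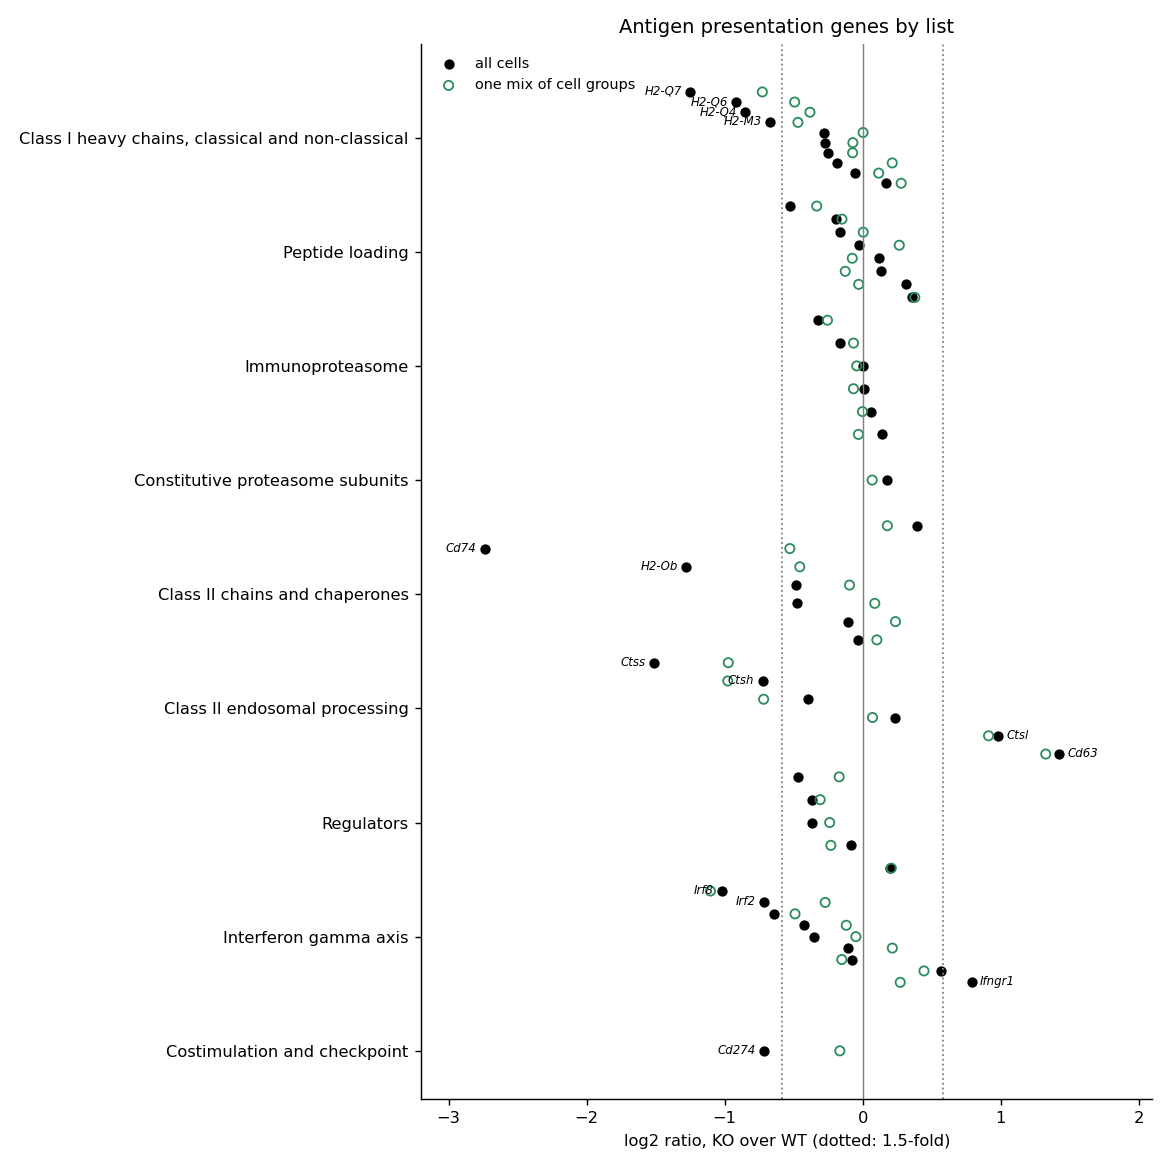
Log2 ratio, KO over WT, of the 53 antigen presentation genes with at least 10 CPM in either library, by list, over all cells (black) and over one mix of cell groups (green), with dotted lines at 1.5-fold and names for genes past it except 1. The class I heavy chains of the Q region and Cd74 move toward 0 over one mix, and Cd63 and Ctsl stay above 1.5-fold.

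Outside these lists, the genes whose level most resembled the class I sum over the 16 points of gate and library with 50 or more cells were Pnrc1 (Pearson r = 0.97), Sesn1 (0.96), Clk1 (0.96), Klhl24 (0.95) and Lgals3bp (0.95). For the class II sum they were Chd3 (0.93), Fmnl1 (0.91), Arhgap25 (0.90), Inpp5k (0.89) and Sept1 (0.89). These points share libraries and depth, and the values are descriptions.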

How the data were processed

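The data were 2 single cell RNA-seq libraries of sorted LSK cells, made with a 10x Genomics 3′ kit that reads 1 end of each transcript, so levels of different genes were not divided by length. The authors aligned the reads and counted UMIs with Cell Ranger. The deposited matrices hold those raw counts for every barcode. The processing notes name Cell Ranger 6.1.2 and mm10 (the same assembly as GRCm38), while the file headers carry another Cell Ranger version. The deposited barcodes were filtered here at 8000 UMIs, above the cutoff the study used. Doublets were kept, and leaving out the 5% of cells with most UMIs was an alternative. Counts were summed per library or gate, scaled to CPM and compared as log2 ratios with exact conditional binomial 95% intervals. Shares of cells carry exact Clopper-Pearson intervals. The floor for a count of 0 was 3 counts. Intervals were checked only on simulated Poisson counts per gene, which leave out the clustering of UMIs in single cells. Alternatives changed the UMI and mitochondrial cutoffs, scaling, cell mix, gates, thinning, weighting of cells, floor and free RNA. Gates were tried in a fixed order on counts thinned to 8000 UMIs. Mast, antibody-secreting, B, innate lymphoid, dendritic, T or NK and macrophage gates needed 3 UMIs of 2 markers that were in under 20% of cells. The granule-high gate needed 50 UMIs, megakaryocyte, lymphoid-primed and HSC gates 4 and the erythroid gate 2. HSC-gated cells had at most 4 and cycling cells at least 5 UMIs of cycling genes. Gate thresholds were set after marker counts had been seen. Progenitor gates are all but the first 7 named. One mix of cell groups weights each gate found in both libraries by the mean of its shares of cells. All 10 members were named, and genes of the wider lists were named where they had 10 CPM in either library and were 1.5-fold apart. The members and lists were chosen with earlier results of these data known. Genes most like a class were the 5 outside all lists with the highest Pearson r of log2(CPM + 1). Other genes with values (Mir142hg, sorting and gate markers, Igkc, H2-DMa) were named after their values had been seen. Of the 10 members, 5 overlap a gene on the opposite strand and 0 one on the same strand in the annotation, and whether counting used strand was not given in the sources used here. Promoters and miRNAs came from RefSeq tables and gene positions and 3′ untranslated regions (the longest per gene) from GENCODE M21. The listed genes H2-T10, H2-Bl and Marchf1 were not used here, and 1 gene that met the naming rule is not reported here. Python 3.11.15, numpy 2.4.6 and scipy 1.17.1 were used.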

Additional observations from a re-analysis of the deposited data

Results flagged for a closer look

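For 3 members the difference between the libraries had opposite directions in different gates, each with its counting interval clear of 0. The difference between gates was not tested, since each gate had 1 library per group. H2-Aa had a log2 ratio of 0.85 in cycling cells and -2.07 (-3.98 to -0.65) in the HSC gate, 2.91 apart, and the first value rested on 1 KO cell with 40 UMIs. H2-K1 had 0.31 in granule-high cells and -0.17 (-0.23 to -0.11) in the megakaryocyte gate, 0.49 apart. B2m had 0.26 (0.19 to 0.32) in the mast and basophil gate and -0.24 (-0.30 to -0.17) in the megakaryocyte gate, also 0.49 apart.

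Barcodes of 1000 to 8000 UMIs, which entered no comparison of the report (those of 4000 and more entered only the alternative with the lower cutoff), carried more classical class I in KO than in WT. H2-D1 was at 2178 CPM in 1253 KO barcodes against 1020.5 CPM in 1295 WT barcodes, and H2-K1 at 1857 against 1237 CPM. H2-D1 reached 10 UMIs in 697 of these KO barcodes and 190 of the WT ones. B2m differed little there, at 1243 CPM in KO and 1251 CPM in WT. Kit was at 513 CPM in these WT barcodes and 299 CPM in those of KO, against 86.4 and 68.3 CPM in the cells. Jchain was at 105.6 CPM in the WT barcodes and 3.69 CPM in those of KO. The barcodes thus differed between the libraries in other genes too, and what they hold was not tested.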

How the results depend on the processing

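No paired analysis was possible because each group had 1 library, and for the same reason no replicate could be left out. The log2 ratio of the class I sum, -0.04 as reported, turned to 0.038 with size factors and to 0.11 over one mix of cell groups. It was -0.016 at a cutoff of 4000 UMIs, -0.059 without the gates of other cell types, -0.072 without the 5% of cells with most UMIs, -0.028 as the mean of the shares per cell and -0.053 with free RNA subtracted at the share Igkc allows. The class II sum, -0.97 as reported, was -1.19 at a cutoff of 16000 UMIs, -0.59 without the gates of other cell types and likewise -0.59 without the antibody-secreting gate alone, -1.07 without the 5% of cells with most UMIs, -0.89 with size factors, -0.15 over one mix, -0.75 with 10% of free RNA subtracted and -0.73 as the mean of the shares per cell. The class II share of cells, 8.28 points lower in KO, was -5.45 points after thinning to 4000 UMIs and -2.17 points for at least 3 UMIs. Class I was lower in KO in 1 gate, and in 0 with doubled gate thresholds and 0 with size factors. Genes past 1.5-fold, 571 as reported, were 5997 with no floor, 152 with a floor of 50 CPM and 255 over one mix. Of single members, H2-K1 turned to 0.023 with size factors and 0.12 over one mix, H2-Eb1 to 0.38 and Ciita to 0.085 over one mix. The H2-Eb1 value over one mix keeps the 1 KO cell with most class II UMIs. With 10% of free RNA subtracted, H2-Aa turned to 0.55 and H2-Eb1 to 3.73, a subtraction far above the limit of 0.814% in WT. The alternatives that leave out the antibody-secreting gate or 1 cell, or subtract free RNA at its limit, were chosen after seeing the data. In all, 99 of the alternative values stayed within the counting error of the reported ones, 62 moved beyond it and 8 turned direction. Depth limits Ciita, H2-Aa and H2-Eb1 most, and no interval covers the spread between mice.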

Other observations

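Tap2, the partner subunit of Tap1 in the transporter, measured 106 CPM in WT against 104 in KO over all cells. Within gates Tap2 was higher in KO in 6 of 7, each with an interval above 0, for example 71.9 and 88.6 CPM in granule-high cells and 131.3 and 174.6 CPM in the HSC gate. Psmb9, an immunoproteasome subunit whose gene overlaps the start of Tap1 on the other strand, measured 229.6 CPM in WT against 183 in KO over all cells (log2 ratio -0.33, -0.35 to -0.30). Its interval lay below 0 in each of the 7 compared gates, such as 221 and 183 CPM in granule-high cells, whereas Psmb8 was at 671 CPM in both libraries over all cells.

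H2-T23, which encodes the heavy chain of Qa-1, measured 168 CPM in WT against 148 in KO over all cells and had an interval above 0 in 5 of 7 gates and below 0 in 1, the cycling cells at -0.066 (-0.13 to -0.0034). In the mast and basophil gate H2-T23 was at 323 and 502 CPM and in granule-high cells at 64.5 and 93.6 CPM. These genes were chosen after their values had been seen.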
